A study of Macaca mulatta and Mus musculus and Rattus norvegicus with 12 samples.

Results

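The genes that osteoclasts use to resorb bone and to fuse with one another were followed through RNA-Seq libraries of calvaria and tibia from mouse, rat and rhesus macaque. They were taken by name, as ACP5, CTSK, CA2, TCIRG1, CLCN7, DCSTAMP, OCSTAMP, CALCR, OSCAR and NFATC1, which is 10 of the 75859 symbols in the tables. The study asked which transcripts differ between osteocytes of the skull and of a long bone, and it prepared the bone so that osteocytes, the cells embedded in the matrix, would be enriched. It removed the periosteum, scraped the surfaces and treated the bone briefly with collagenase, and the rodent tibias were spun to clear the marrow, a step that neither the labels nor the methods give for the sawn macaque bone. The rodent calvariae were instead cut so as to leave out the sutures and marrow spaces, so marrow was handled differently at each site. Osteoclasts sit on bone surfaces, which this preparation aimed to clear.

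The mouse samples came from 4 month old female C57BL6 animals, with M4 and M8 from calvaria (2 libraries) and M5 and M7 from tibia (2), each a pool of 3 mice. The rat samples came from 6 month old female Wistar animals, with 1 calvaria library (R1) and 1 tibia library (R3), each a pool of 2 rats. Macaque supplied G1, G3 and T1 from calvaria (3 libraries) and G2, G4 and T2 from tibia (3), each from 1 animal, whose age is 4 to 6 in months by the labels and in years by the methods. The labels give no transgene and no treatment for any group. Calvaria and tibia were taken from the same animals or pools, but the labels do not say which libraries belong together.

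Osteoclasts are large cells with several nuclei that form when precursors of the monocyte and macrophage lineage fuse. Receptor activator of NF-kB ligand (RANKL, gene TNFSF11) drives this step through NFATC1, the transcription factor that switches on the resorption genes, and the secreted decoy receptor osteoprotegerin (gene TNFRSF11B) blocks it. A mature osteoclast seals off a patch of bone, acidifies it with a proton pump and a chloride channel to dissolve the mineral, and secretes enzymes that cut the exposed collagen.

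The tables held 9 of the 10 genes by symbol in mouse, 8 in rat and 7 in macaque. CA2 was listed as Car2 in mouse and rat, and DCSTAMP by its older symbol TM7SF4 in macaque, which brought the numbers to 10, 9 and 8. OCSTAMP had no row by symbol in rat or macaque, and OSCAR had none in macaque. The rat row named DCSTAMP had 0 reads in both libraries, whereas a second row described as the same protein (LOC103690326) had 242 and 190, and this second row is used below. Likewise macaque OCSTAMP is given from a row whose identifier (LOC716673) RefSeq assigns to it. Both of these rows were found after the values had been seen, and neither is counted among the genes tested.

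The libraries held between 13934813 and 16826535 reads on named genes in mouse, 14255423 and 12233256 in rat, and between 7951585 and 10342459 in macaque. Osteocyte markers, summed over SOST, DMP1, MEPE and others, reached between 7816 and 10682 CPM (reads scaled to a common library size) in the mouse tibias against 1082 and 1963 in the calvariae. In macaque they reached between 7553 and 17078 in tibia against 4934 to 5734 in calvaria. There 4 of the 7 markers had a row, and MEPE made up most of the sum. Of these 4, only MEPE was called between the sites. DMP1 and IRX5 had log2 ratios of calvaria over tibia of −0.21 and −0.29, and PHEX went the other way (0.21). SOST had no row by that symbol in macaque, although the study lists it there as higher in tibia, so these sums lack it. Neutrophil markers were abundant and summed to between 57242 and 65178 CPM in the mouse tibias and to 92199 and 125520 in the calvariae, and the macaque sums were between 7020 and 13873 in tibia and between 35587 and 59173 in calvaria. T2 stood apart from the other macaque tibias with 138019 CPM of osteoblast markers against 38075 and 38238, and M4 from M8 with 49412 against 22130.

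ACP5, CTSK and CA2 were the most abundant of the 10 genes per exonic length in both rodents. In mouse the medians over the 4 libraries were 536 RPKM (reads per kilobase of exon, scaled to the reads of the library) for CA2, 311 for ACP5 and 172 for CTSK. Their ranges overlapped: CA2 lay between 401 and 822, ACP5 between 292 and 639 and CTSK between 93.9 and 299.7. The other 7 had medians between 0.383 (CALCR) and 19.5 (TCIRG1), below every library's value of the leading genes. Rat had the same leading genes, with 2421 for CA2, 397 for ACP5 and 331 for CTSK. In macaque ACP5 led with 154, followed by CA2 with 110 and TCIRG1 with 11.9, whereas CTSK was at 4.86. The order of the first pair differed between the sites: the means of CA2 and ACP5 were 171 ± 19.9 and 166 ± 22.2 in calvaria and 47.2 ± 16.1 and 121 ± 71.8 in tibia (SD, n = 3), so that they did not differ beyond their spread in calvaria. ACP5 thus exceeded CTSK between 1.64 and 3.11 times in the mouse libraries and between 7.92 and 51.5 times in the macaque ones, a comparison across separate annotations in which the length and completeness of the gene models also differ. For macaque CTSK the levels per length used only its row beside ARNT, whereas its CPM and fold changes below sum both rows of that symbol.

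**Figure D1:**
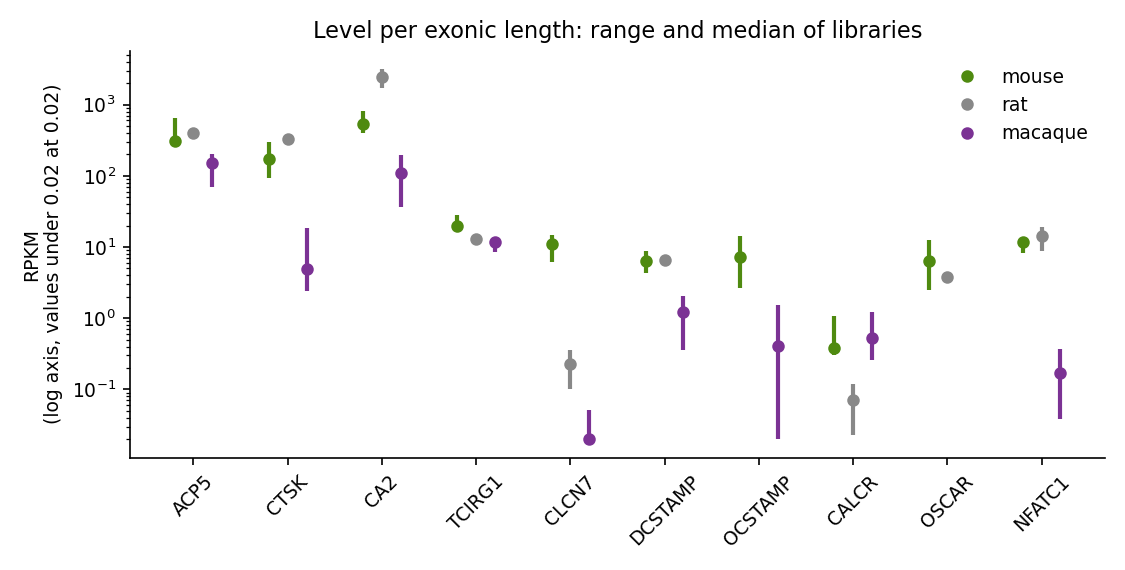
Level of each gene per exonic length (RPKM, log axis) in mouse, rat and macaque, with lines from the lowest to the highest library and points at the median. CA2, ACP5 and CTSK lead in mouse and rat, while macaque CTSK and NFATC1 lie far below their rodent levels and CLCN7 is near the floor in both rat and macaque.

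In mouse none of the 10 genes was called between calvaria and tibia. In macaque ACP5, CTSK and CA2 were higher in calvaria, by 1.55, 2.13 and 4.11 times. The CTSK difference rested on G1, without which its log2 fold change went from 1.09 to 0.03. The ACP5 call was not made by edgeR's exact test or DESeq2, nor after genes with few reads were filtered out. Of the 3, CA2 alone kept the calvaria above the tibia in every library. In rat, with 1 library per site, CA2 was 1.85 times as high in calvaria and NFATC1 0.461 times, and the other well-covered genes differed less.

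Mouse and macaque were tested with edgeR's quasi-likelihood test over every symbol with a read; the limits for a call were those of the study, an FDR (false discovery rate) below 0.2 with more than a 1.1-fold change. In mouse 0 of 10 genes were called, where 2.28% of the 22339 genes tested were. An unadjusted p under 0.05 was reached by 0 of 10 and by 8.1% of all genes, and edgeR's exact test and DESeq2 also called 0. In macaque 3 of 8 were called, all higher in calvaria, where 19.7% of the 18894 genes tested were called in either direction and 10.3% as higher in calvaria. Over the genes the median log2 fold change came to 0.30 in mouse, against 0.05 over all genes tested. In macaque it was 1.09 over the 7 genes with enough reads for a fold change, or 0.86 with the fitted value of CLCN7 included, against 0.03 over all genes. The value of 1.09 is that of CTSK, which rested on G1. Rat ratios were called past 2 on the log2 scale with 1 read added, and 0 of 8 genes passed, where 9.69% of 19234 did. The rat median was −0.23 against −0.29 over all genes, so rat ratios are also given relative to that shift. The labels do not name the pairs, so the main fits treated calvaria and tibia libraries of the same animals or pools as independent. Their p-values measure the spread between these libraries only. In bulk bone, fewer osteoclasts and less RNA per osteoclast cannot be told apart.

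**Figure D2:**
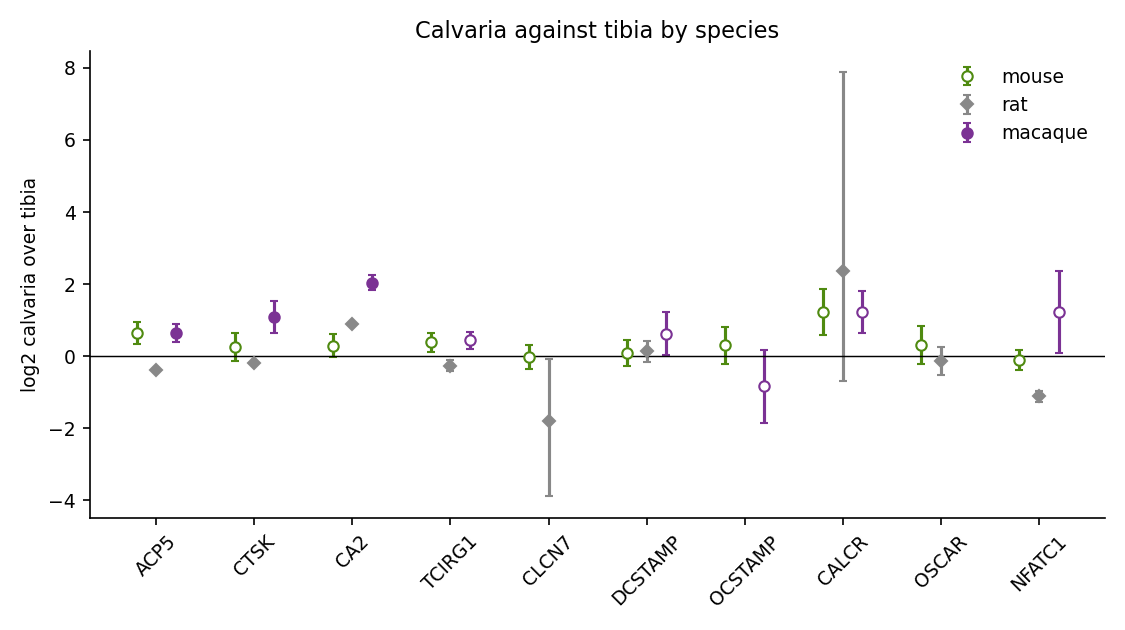
Log2 ratio of calvaria over tibia for each gene. Circles are edgeR estimates with 1 standard error for mouse (2 libraries per site) and macaque (3 per site), filled where called; diamonds are ratios of the 2 rat libraries with 95% counting intervals and no replicates. Macaque CLCN7 is left out for want of reads, and the filled circles are macaque ACP5, CTSK and CA2.

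ACP5 and CTSK encode enzymes that act on the bone matrix. ACP5 encodes tartrate-resistant acid phosphatase, the classical histochemical marker of osteoclasts (mouse Acp5, GRCm38 chr9:22126727-22135711, minus strand). Mouse ACP5 stood at 1524 normalized CPM in M4 and 743 in M8, against 737 in M5 and 711 in M7. M4 was thus high by itself, and M8 lay just above the tibias. This gave a log2 fold change of 0.65 (SE 0.31, adjusted p = 0.655). Rat ACP5 was lower in calvaria, at 748 CPM in R1 and 969 in R3, a ratio of 0.771 with an exact binomial 95% interval from 0.751 to 0.792 that covers counting error only, as all such intervals here do. Relative to the rat shift this was a log2 ratio of −0.08.

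Macaque ACP5 was at 218, 248 and 314 normalized CPM in the calvariae G1, G3 and T1, and at 114, 92.8 and 295 in the tibias G2, G4 and T2. The sites overlapped through T2, which held 2.59 times the level of G2 and 3.18 times that of G4. The log2 fold change was 0.63 (SE 0.25, adjusted p = 0.109). With the libraries blocked by their assumed pairs (G1 with G2, G3 with G4, T1 with T2) it was 0.81 (adjusted p = 2.37e-05), and calvaria was higher in each of the 3 pairs, by little in T1 over T2. Without TMM scaling that pair had the reverse order, at 191 RPKM in T1 and 203 in T2. Without T2 the log2 fold change rose to 1.34, and the call was lost without G2 (0.42), G3 (0.67) or G4 (0.35). Over all alternatives the adjusted p ran from 5.33e-11 to 0.499, and edgeR's exact test and DESeq2 did not call it. In the quasi-likelihood test the call was also lost with edgeR's filterByExpr (adjusted p = 0.287) and over shared symbols (adjusted p = 0.226). It was lost as well over genes with a read in every library, the filter of the study (adjusted p = 0.281).

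CTSK encodes cathepsin K, the protease that digests collagen type I in the acid beneath the cell (mouse Ctsk, GRCm38 chr3:95499256-95509362, plus strand). In mouse it ran from 648 normalized CPM in M4 to 217 in M8, with 406 in M5 and 319 in M7 between them. The calvariae were the highest and the lowest library, 2.99 times apart, and the log2 fold change was 0.25 (SE 0.39, adjusted p = 0.874). Rat CTSK was at 437 CPM in R1 and 501 in R3, a ratio of 0.873 (0.842 to 0.904), which is above the rat shift by 0.10 on the log2 scale and changes direction with TMM scaling (0.09).

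Macaque CTSK was at 19.9, 3.64 and 5.70 normalized CPM in G1, G3 and T1, and at 3.28, 4.79 and 5.63 in G2, G4 and T2. G1 was far above the other libraries, and without it the sites had nearly the same level: the log2 fold change went from 1.09 (SE 0.44, adjusted p = 0.118) to 0.03 (adjusted p = 0.982). The call was also lost without G2 (0.90, adjusted p = 0.251), by edgeR's exact test (adjusted p = 0.270), with edgeR's filterByExpr (adjusted p = 0.239) and over genes with a read in every library, the filter of the study (adjusted p = 0.237). The macaque table lists CTSK in 2 rows. The row beside ARNT held 160, 27 and 43 reads in G1, G3 and T1 and 20, 42 and 56 in G2, G4 and T2. The row beside TDO2 held between 0 and 10 reads and lies where RefSeq's newer assembly places CTSO, another cathepsin gene; without it the log2 fold change was 1.16.

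The acid machinery includes the largest difference among the 10 genes. CA2 encodes carbonic anhydrase 2, which makes the protons that the osteoclast pumps out (mouse Car2, GRCm38 chr3:14886273-14900770, plus strand); red blood cells also hold much of this enzyme. Macaque CA2 was at 279, 280 and 366 normalized CPM in G1, G3 and T1, a mean of 308 ± 49.9 (SD, n = 3). The tibias G2, G4 and T2 were at 54.0, 60.3 and 110, a mean of 74.9 ± 30.9 (SD, n = 3). Every calvaria lay above every tibia, which held for 1 of the 8 genes and for 12.8% of all genes tested. The log2 fold change was 2.04 (SE 0.22, adjusted p = 4.83e-09), and it remained called in all 18 fits compared, with log2 fold changes between 1.85 and 2.44 and adjusted p-values up to 0.00285.

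Mouse CA2 was at 754 normalized CPM in M4 and 1645 in M8, with the tibias between them at 1004 in M5 and 959 in M7. The order of the calvariae was thus the reverse of that of the other genes, with M8 2.18 times M4, which left a log2 fold change of 0.29 (SE 0.32, adjusted p = 0.874). Rat CA2 was at 4587 CPM in R1 and 2477 in R3, a ratio of 1.85 (1.83 to 1.88), or 1.18 on the log2 scale above the rat shift.

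Erythroid markers went with CA2 in the order of the sites in macaque and rat, and in the highest and lowest library in mouse. Their summed level, over ALAS2, AHSP, CA1 and, with most of the reads, HBB, was 25521, 34412 and 37228 CPM in macaque G1, G3 and T1 and 7947, 6880 and 9954 in G2, G4 and T2, and all 4 of the markers with a row were called higher in calvaria. In mouse the sum over 4 markers, with SLC4A1 but no row for HBB, was lowest in M4 (747) and highest in M8 (2294), with 1054 in M5 and 1156 in M7, the ends being the same libraries as for CA2. In rat it was 17369 in R1 and 11814 in R3. No erythroid marker with a row was at 0 in all libraries of a species. G2 and G4, and likewise M5 and M7, stood in opposite orders for the erythroid sum and for CA2. Neutrophil markers were also higher in every macaque calvaria than in every tibia, as given above. In rat they summed to 82056 CPM in R1 and 44221 in R3. In mouse they were higher in both calvariae than in the tibias, unlike CA2. The part of either marker set in the CA2 result was not tested. Per exonic length, CA2 relative to ACP5 ran from 0.628 in M4 to 2.81 in M8, and from 0.977 to 1.11 in the macaque calvariae against 0.324 to 0.563 in the tibias.

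**Figure D3:**
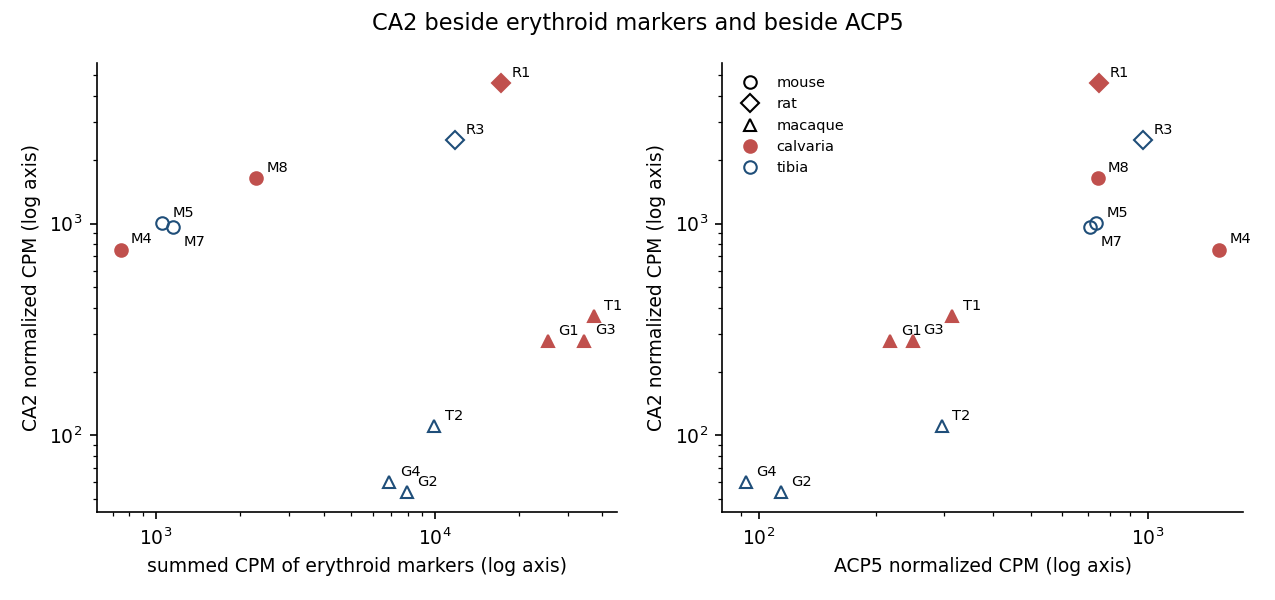
CA2 (normalized CPM, log axis) in the 12 libraries against the summed CPM of erythroid markers (left) and against ACP5 (right), both log axes; the symbol gives the species, and filled red is calvaria and open blue is tibia. Within mouse, M4 has the lowest and M8 the highest value of both CA2 and erythroid markers, while M4 has the highest ACP5; the 3 macaque calvariae lie above the 3 tibias in CA2 and in erythroid markers.

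TCIRG1 encodes the osteoclast form of a membrane subunit of the proton pump. In mouse it was at 93.0 normalized CPM in M4, 67.1 in M8, 62.6 in M5 and 59.8 in M7, so that both calvariae lay above both tibias, M8 by little. The log2 fold change was 0.39 (SE 0.27, adjusted p = 0.844). In rat it was at 44.8 CPM in R1 and 53.8 in R3 (ratio 0.832, 0.745 to 0.929), 0.03 above the rat shift on the log2 scale. Macaque values were 33.5, 41.5 and 38.9 in G1, G3 and T1 and 22.3, 21.9 and 39.3 in G2, G4 and T2. T2 was again at the level of the calvariae. Its log2 fold change of 0.45 (SE 0.23, adjusted p = 0.271) became a call with the assumed pairs as a block (0.49, adjusted p = 0.0673).

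CLCN7 encodes the chloride-proton exchanger that balances the charge of the pumped protons. Mouse CLCN7 was at 59.5 normalized CPM in M4, 27.0 in M8, 47.0 in M5 and 40.4 in M7, with the calvariae on either side of the tibias and a log2 fold change of −0.01 (SE 0.33, adjusted p = 0.995). Rat CLCN7 had 4 reads in R1 and 12 in R3, a ratio of 0.286 (0.0672 to 0.944). Macaque CLCN7 had 1 read in all, in G2, so no fold change is given. Its neighbour TELO2, a gene of general use, had 0 reads in every macaque library, and IFT140 had between 0 and 12. A level of 0 at this depth allows up to 0.290 to 0.377 CPM per library, the value of 3 reads.

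The fusion proteins were scarcer. DCSTAMP encodes the membrane protein that precursors need in order to merge. In mouse it was at 18.0 normalized CPM in M4, 9.45 in M8, 12.5 in M5 and 13.6 in M7, with the calvariae at both ends and a log2 fold change of 0.08 (SE 0.36, adjusted p = 0.967). The rat row LOC103690326 gave 17.0 CPM in R1 and 15.5 in R3, a ratio of 1.09 (0.900 to 1.33). Macaque DCSTAMP was at 3.50, 4.14 and 1.94 in G1, G3 and T1 and at 0.984, 0.685 and 4.47 in G2, G4 and T2. T2 was the highest of the 6. With it the log2 fold change was 0.62 (SE 0.59, adjusted p = 0.589), and it was 1.92 without T2, with an adjusted p of 0.0418.

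OCSTAMP encodes a second membrane protein of the same step. In mouse it was at 27.9 normalized CPM in M4 and 5.49 in M8, against 14.1 in M5 and 12.997 in M7. The calvariae differed the most here of all 10 genes, and the log2 fold change was 0.30 (SE 0.52, adjusted p = 0.879). The macaque row LOC716673 had 2, 7 and 6 reads in G1, G3 and T1 and 6, 0 and 27 in G2, G4 and T2, so that T2 held most of them (log2 fold change −0.83, SE 1.02, adjusted p = 0.666).

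CALCR encodes the calcitonin receptor, through which calcitonin stops resorption. Mouse CALCR was at 4.29 normalized CPM in M4 and 1.75 in M8, and at 1.36 in M5 and 1.23 in M7. Both calvariae lay above both tibias. The log2 fold change was 1.22 (SE 0.64, adjusted p = 0.701). Rat had 6 reads in R1 and 1 in R3, a ratio of 5.15 whose interval runs from 0.625 to 237. Macaque CALCR was at 4.70, 2.13 and 2.67 in G1, G3 and T1 and at 0.984, 0.913 and 2.14 in G2, G4 and T2. Calvaria was higher in each assumed pair, though the sites overlapped between G3 and T2. The log2 fold change was again 1.22 (SE 0.59, adjusted p = 0.219), and with the pairs as a block it was 1.23 and called (adjusted p = 0.144).

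OSCAR encodes a receptor that binds collagen and gives a costimulatory signal. In mouse it was at 26.2 normalized CPM in M4 and 5.56 in M8, with 16.6 in M5 and 9.10 in M7 (log2 fold change 0.31, SE 0.53, adjusted p = 0.879). M4 was again the highest and M8 the lowest. In rat it was at 8.14 CPM in R1 and 8.91 in R3, a ratio of 0.913 whose interval from 0.697 to 1.20 includes 1.

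NFATC1 had the smallest ratio of highest to lowest library of the 10 in mouse, at 95.0 normalized CPM in M4, 65.1 in M8, 86.1 in M5 and 86.3 in M7 (log2 fold change −0.11, SE 0.27, adjusted p = 0.930). In rat it was lower in calvaria, at 36.5 CPM in R1 and 79.3 in R3, a ratio of 0.461 (0.414 to 0.513), or −0.82 on the log2 scale relative to the rat shift. In macaque it was under 1.3 normalized CPM throughout, with 10, 4 and 7 reads in G1, G3 and T1 and 1, 5 and 4 in G2, G4 and T2 (log2 fold change 1.23, SE 1.13, adjusted p = 0.574). Counts this low leave a wide error.

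**Figure D4:**
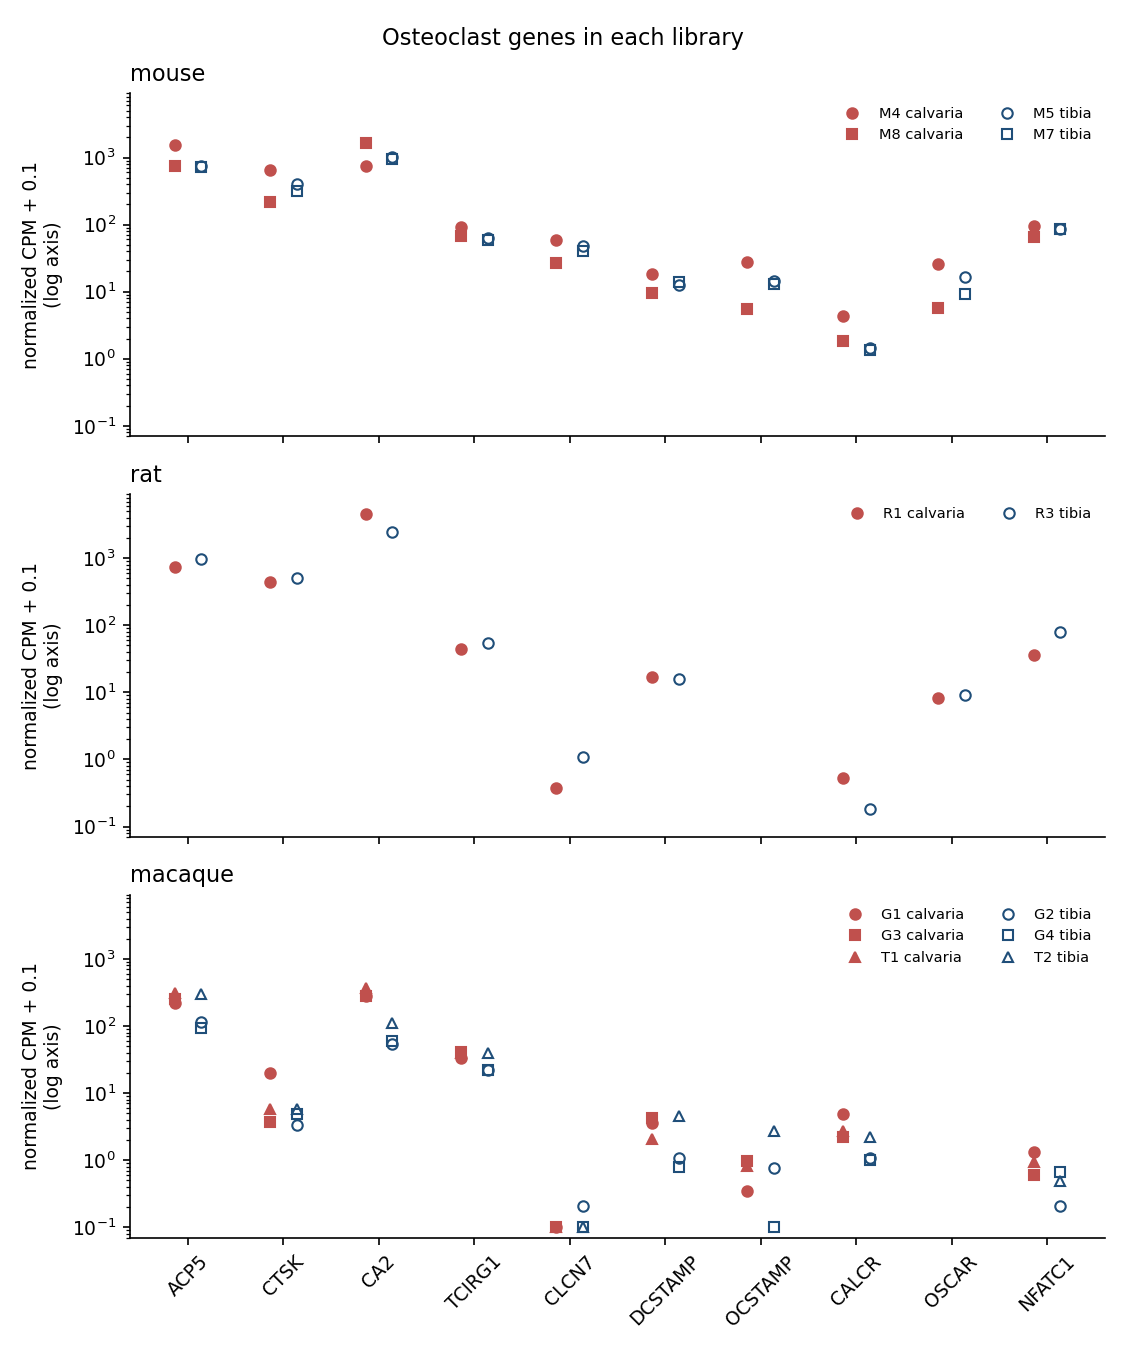
Normalized CPM plus 0.1 (log axis) of each gene in every library of mouse (top), rat (middle, CPM without TMM scaling) and macaque (bottom), with filled red calvariae and open blue tibias. Rat DCSTAMP and macaque OCSTAMP are shown from the rows LOC103690326 and LOC716673. The macaque calvariae lie apart from the tibias in CA2, and T2 lies with the calvariae in ACP5, TCIRG1 and DCSTAMP.

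The spread among the mouse genes ran between the calvariae rather than between the sites. The 9 genes other than CA2 were highest in M4, as were 26.5% of the 14527 genes with a mean of at least 1 CPM; CA2 was lowest there and highest in M8, an order that 15.1% had. Of these, 6 genes (CTSK, CLCN7, DCSTAMP, OCSTAMP, OSCAR and NFATC1) were also lowest in M8, an order shown by 13.7%. Both calvariae were above both tibias for ACP5, TCIRG1 and CALCR, that is 3 of 10 genes, where 17.3% of all genes tested had this order. The result therefore depended on which calvaria was kept. Without M8, 8 genes were called, of which ACP5, CTSK, TCIRG1, CLCN7, OCSTAMP, CALCR and OSCAR were higher in calvaria (for CTSK 0.83) and CA2 lower (−0.39). Without M4, 6 were called, with CTSK (−0.77), OCSTAMP (−1.33), OSCAR (−1.24), CLCN7 and NFATC1 lower in calvaria and CA2 higher (0.72). A single remaining calvaria is assumed to vary like the tibias, and calls over the whole table reached 17.6% without M8 and 34.4% without M4. Osteoblast markers were also higher in M4 than in M8, as given above, and erythroid markers lower. The part of either in this split was not tested.

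Among the macaque tibias T2 lay nearest to the calvariae for several genes. It was above G2 and G4 in 6 of the 8 genes (ACP5, CTSK, CA2, TCIRG1, DCSTAMP and CALCR), an order that 39.4% of the 12305 genes with a mean of at least 1 CPM had. Without T2, 6 of the 8 genes were called higher in calvaria, where 26.9% of all genes were called, and the same number was called in the G libraries alone, where 24% of all genes were. With the assumed pairs as a block, 5 were called (ACP5, CTSK, CA2, TCIRG1 and CALCR), where 25.3% of all genes were. Without G2 the count fell to 1 (CA2), where 13.5% of all genes were called. Over genes with a read in every library, 2 were called (CA2 and CALCR), where 28.8% of all genes were, and the same 2 were called with filterByExpr. Of the macrophage markers 4 of 8 were called higher in calvaria, where 10.3% of all genes were. These were AIF1, C1QA, ITGAM and EMR1, the last with only 11 reads over the calvariae and 0 over the tibias. CD14, C1QC, MRC1 and CSF1R were not called. The sums of the macrophage markers lay between 342 and 445 CPM in calvaria against 205 to 304 in tibia. AIF1 carried most of the sum in calvaria (174 to 254 CPM), whereas CSF1R was at a mean of 48.5 CPM in calvaria and 57.7 in tibia and was not called. Their part in the macaque result was not tested.

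**Figure D5:**
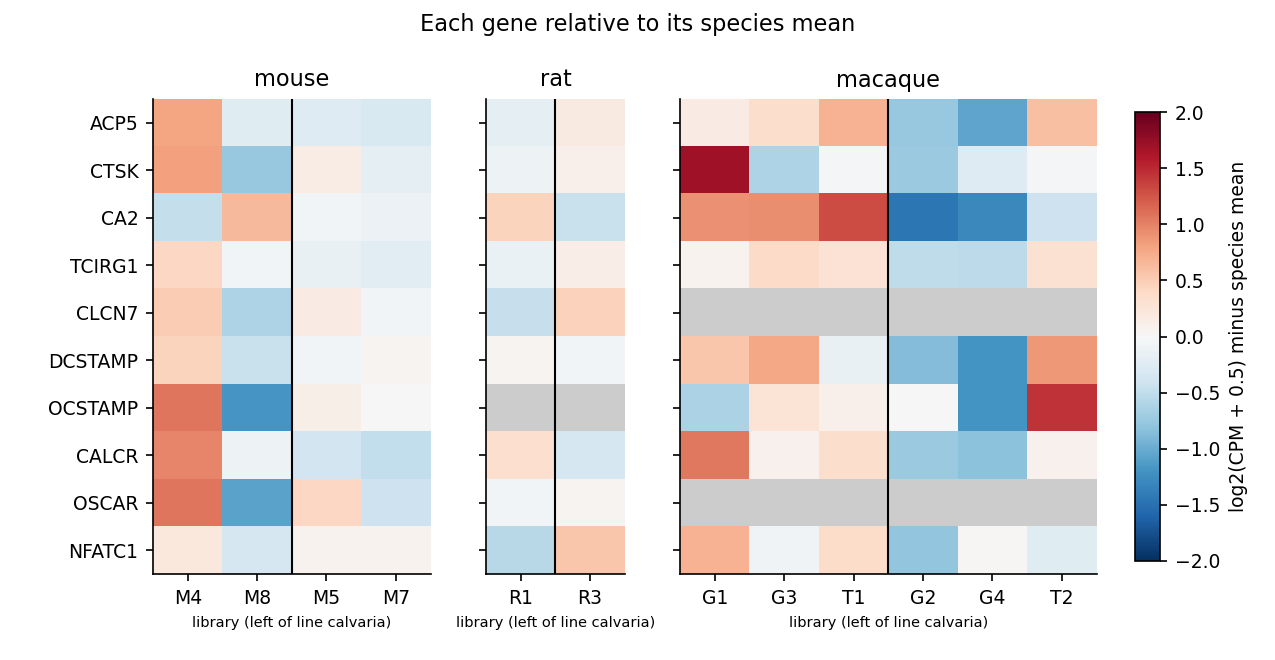
Each gene in each library as log2(CPM + 0.5) minus the mean of its species (color scale), with calvariae left and tibias right of the black line; grey marks genes with no row or, for macaque CLCN7, too few reads. M4 is red and M8 blue for most genes except CA2, and T2 is redder than G2 and G4 except for NFATC1, where it lies between them.

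Whether the site difference itself differed between macaque and mouse was tested by an interaction term over 8198 shared symbols. CA2 was called, with a macaque difference 1.76 larger on the log2 scale (SE 0.50, adjusted p = 0.147). It was 1 of 8 genes, where 5.7% of all symbols were called. The call was absent at a false discovery rate under 0.05, and it held without M4 (1.30), M8 (2.44) or T2 (2.17) but not without any one of the other 7 libraries, where the value lay between 1.57 and 1.85. For ACP5 the difference between species was 0.00 with an SE of 0.63, and for TCIRG1 it was 0.07 (SE 0.38), so that sizeable differences either way remained within error. NFATC1 came to 1.36 (SE 0.61, adjusted p = 0.349).

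A list of 39 other osteoclast genes was read in the same way. In mouse 38 had reads and 1 was called, higher in calvaria, with a median log2 fold change of 0.21, and 2.28% of all genes were called, so the list stood near the background. The called gene was FOS, a transcription factor needed for osteoclast formation and an immediate early gene in many cell types, at 108 and 69.0 normalized CPM in M4 and M8 and 34.2 and 41.8 in M5 and M7 (log2 fold change 1.22, SE 0.29, adjusted p = 0.0758). The acid and vesicle group, with pump subunits such as ATP6V1A and the lysosomal protein OSTM1, had 0 of 9 called, with log2 fold changes between 0.02 and 0.45. In rat, FOS was past the threshold towards calvaria (2.16), and CD44 (−2.74) and MMP14 (−2.26) towards tibia, where 9.69% of all genes were past it, and the list median was −0.24 against −0.29 over all genes.

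In macaque 31 of the 39 genes had reads, with 3 called higher in calvaria and 3 in tibia and a median of 0.20; 19.7% of all macaque genes were called, so the list stood near the background. TYROBP, the adaptor that relays costimulatory signals including those of TREM2, was higher in calvaria, at 87.3, 136 and 116 normalized CPM in G1, G3 and T1 against 35.2, 38.5 and 64.7 in G2, G4 and T2 (log2 fold change 1.29, adjusted p = 3.25e-05). MMP9, a gelatinase that neutrophils also make, was called higher in calvaria as well (0.78, adjusted p = 0.0473), with T2 at the level of the calvariae. SIRPA, a receptor for CD47, had 9 reads over the calvariae and 0 over the tibias, at least 3.01-fold higher against 3 reads over the group, and was called with an adjusted p of 0.19987, just below the limit. Higher in tibia were the adhesion receptor CD44 (−1.02) and the transcription factors BCL6 (−0.72) and MITF (−0.54). The acid and vesicle group had 0 of 9 called, with log2 fold changes between −0.14 and 0.47. Among them ATP6V1A, OSTM1 and PLEKHM1 had only 24, 20 and 18 reads over the calvariae and 27, 20 and 15 over the tibias. Their SEs were 0.89, 0.96 and 1.07, so sizeable differences remained within error for them.

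The signals that osteoblasts and osteocytes send to osteoclasts were lower in calvaria where they were called. RANKL (TNFSF11) stood at 7.84, 3.76 and 4.36 normalized CPM in macaque G1, G3 and T1 and at 29.9, 29.9 and 35.2 in G2, G4 and T2. The sites were far apart, with a log2 fold change of −2.57 (SE 0.29, adjusted p = 2.32e-08). In mouse it was scarce, with 42 and 9 reads in M4 and M8 and 35 and 60 in M5 and M7 (−0.83, SE 0.69, adjusted p = 0.874), and the rat row had 0 reads in both libraries. Osteoprotegerin (TNFRSF11B) was called lower in calvaria in mouse, at 6.40 and 3.05 against 25.2 and 28.0 (−2.49, adjusted p = 0.00403), and in macaque (−0.77, adjusted p = 0.0541). In rat it had 57 reads in R1 and 478 in R3 (log2 ratio −3.27). CSF1, which keeps osteoclast precursors alive, was at −0.16 in mouse (adjusted p = 0.896) and −0.59 in rat, and its macaque row had 0 reads.

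The genes whose pattern was most like that of ACP5 over the 12 libraries, each centred on its species mean, were ST6GALNAC4 (Pearson's r = 0.935), PDIA6 (0.924), C1QA (0.919), SPARC (0.917) and MRPL11 (0.907), among 3973 symbols with enough reads in all species. SPARC encodes osteonectin, a matrix protein of osteoblasts, and C1QA a complement subunit made by macrophages. For CTSK they were EIF1B (0.837), BRIX1 (0.835), GALNT2 (0.811), SUCLG1 (0.793) and VPS13D (0.780). For CA2, looked up after its values had been seen, they were HEMGN (0.993), ALOX5AP (0.991), SRGN (0.990), PADI4 (0.989) and RAC2 (0.987); HEMGN is a nuclear protein of blood precursors, and PADI4 and RAC2 are abundant in neutrophils. These correlations are a description, since the points share species, pools and library composition.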

How the data were processed

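Poly(A)+ RNA was sequenced from 12 libraries. The authors mapped the reads to mm10, rn6 and MacaM with HISAT2 by the methods, whereas the submitters' processing notes name BWA 0.7.10-r789, HTSeq and edgeR 3.16.5, and counted them per gene on merged exons without regard to strand. The deposited raw counts were used as they stand. The deposited normalized signal of the authors equals the count times 1 constant per library and was not used, and the deposited exonic length served the levels per length. Mouse and rat libraries were run in lane 3 and macaque in lane 4, so lane and species cannot be told apart. The macaque G and T libraries came in separate tables, and their raw counts were joined by row.

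A symbol was the text before the first comma of the description, in upper case, and rows with one symbol were summed. An exception was the level per length of macaque CTSK, which used only the row beside ARNT. Rows naming no gene held between 0.00261% and 0.0663% of reads and were left out, and 0 other columns of per-sample values were present. Each of mouse and macaque had its own quasi-likelihood fit by edgeR 4.0.16 (R 4.3.3), after TMM scaling and estimateDisp, with p-values adjusted by the Benjamini-Hochberg method over all symbols; CPM there use TMM-scaled library sizes. The SE is the log2 fold change divided by the square root of F. DESeq2 1.42.0 was an alternative. Rat ratios used unscaled library sizes and Python 3.11.15 with scipy 1.17.1 for intervals. On simulated counts the mouse fit recovered 182 of 200 genes changed by 2 on the log2 scale, the macaque fit 199 and the interaction 174, and unchanged genes made up 19.1%, 13.9% and 15.5% of their calls. The simulated counts had the same dispersion for all genes, below the common one fitted to mouse or to macaque. Only genes with many reads were changed. Recovery and false calls in the real libraries may therefore be worse.

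The pairs of macaque libraries were assumed from consecutive numbers, since the methods state that sites were paired but the labels do not name the pairs. Deviations from the group means correlated at 0.203 (G1 with G2), 0.282 (G3 with G4) and 0.446 (T1 with T2) over 12305 genes, and between −0.351 and 0.0898 for the other combinations. Such deviations sum to 0 within a site, so positive values for some combinations bring negative ones for others. The other combinations within the G libraries were at 0.0898 and 0.0524. T1 and T2 are the only T libraries, so their value cannot tell a pair from a shared letter. For mouse the labels name no pairs either, and both possible pairings were tried. All 10 genes are named, with called genes of the 39-gene list and the genes most like ACP5 and CTSK. The genes, lists and marker sets were chosen with earlier results of these data known. Part of the erythroid marker list is not reported here and was left out of its sums. Alternatives were other scalings, filters, tests, thresholds, blocks and the omission of each library.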

Additional observations from a re-analysis of the deposited data

Results flagged for a closer look

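The site difference of CA2 differed between macaque and mouse by the interaction test: log2 fold changes of 2.04 in macaque and 0.29 in mouse, and 1.76 between them in the joint fit (edgeR, SE 0.50, adjusted p = 0.147). The call was absent at a false discovery rate under 0.05 and without any one of 7 of the 10 libraries, and mouse CA2 itself ran from −0.39 without M8 to 0.72 without M4. The macaque calvariae were above the tibias in 3 of 3 assumed pairs, whereas of the mouse calvariae M8 lay above both tibias and M4 below both. Erythroid marker sums placed the calvariae against the tibias in the same way, as did neutrophil sums in macaque but not in mouse. The part of either in the difference was not tested.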

How the results depend on the processing

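Pairing: the blocked fit changed macaque calls as given in the report, from 3 to 5 genes, as did the letter of the library name as a batch (5). In mouse, where the labels name no pairs, blocking by assumed pairs took calls over the table from 510 to 295 and turned OCSTAMP to −0.093 (−0.10 with the other pairing); 0 of the 10 genes were called either way. Mouse calls over the table were 29 with filterByExpr, 14 with a read in every library, 20 over shared symbols and 208 under 0.05. Leaving out 1 library gave 220 to 7470 calls in mouse and 0 to 8 of the 10 genes, with log2 fold changes of −0.77 to 0.83 for CTSK, −0.49 to 0.46 for DCSTAMP, −1.33 to 1.03 for OCSTAMP, −1.24 to 1.01 for OSCAR (−0.06 without M7), −0.72 to 0.44 for CLCN7 (0.10 without M5), −0.39 to 0.72 for CA2 and −0.43 to 0.13 for NFATC1. In macaque the 3 called genes became 1 by the exact test, at a false discovery rate under 0.05 or a log2 fold change over 1.1, 6 in the G libraries alone (chosen after seeing the data) and 1 to 6 with 1 library left out. Macaque calls over the table, 3724, were 2136 over shared symbols, 1978 under 0.05, 1550 over the larger fold and 2301 to 4998 with 1 library left out; scaling by library size alone split them 1381 to 3118 in favour of tibia against 1943 to 1781. Rat had 1864 genes past the threshold, 690 with 5 reads added, 574 over shared symbols and 6072 at a threshold of 1, where 3 of the genes passed (CLCN7, CALCR and NFATC1). With TMM factors rat TCIRG1 (0.02) and OSCAR (0.16) also changed sign. The interaction called 0 genes under 0.05 and 0 to 1 with 1 library left out. Of the remaining values for single genes, 107 in mouse and 113 in macaque kept their direction and call; 9 in mouse and 13 in macaque gained a call and 13 in macaque lost one, all without a change of direction, and 5 of 24 rat ratios moved beyond counting error. Few reads limited the estimates of CLCN7 and CALCR in rat, and of CLCN7, NFATC1 and OCSTAMP in macaque. The reason for the few reads was not tested.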
